A study of Mus musculus with 6 samples.

Results

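Of 8067 cardiomyocytes (CMs) from P5 mouse left ventricles, 689 still held at least 3 transcripts of Myh7, the slow (beta) myosin heavy chain gene (ENSMUSG00000053093, chromosome 14 of GRCm38 from 54970684 to 54994626). They were chosen by measured counts. A cell was called a CM when it held at least 1 unique molecular identifier (UMI, the tag that marks 1 captured RNA molecule) of each of Tnni3, Tnnt2, Actc1 and Tnnc1, and Myh7-retaining when it held at least 3 UMIs of Myh7. CMs of the same library with 0 UMIs of Myh7 served for comparison and are called Myh7-0 CMs. Since the rule used the counts of these cells, every difference between the classes is given as a description without a test.

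The series holds 31156 single cells in 6 libraries of droplet-based scRNA-seq (10x, reads from the 3′ end), 1 library for each pairing of an age (E16.5, P1 or P5) with a ploidy (2n or 4n), named for example E16.5-2n. Left ventricles of C57BL/6J mice were dissociated, and the cells were fixed in methanol, stained for the CM marker MYH1 and with Hoechst, and sorted as diploid (2n) or tetraploid (4n) CMs, with cells of 3 sorts pooled for each library. The labels name no transgene or treatment in any group. The 4n gate takes both CMs with 2 nuclei or 1 tetraploid nucleus and diploid CMs in G2/M, and MYH1 staining selects cells by a myosin protein. P5-2n held 4413 CMs among 4462 cells with 17992590 UMIs in total, and P5-4n held 3654 CMs among 3678 cells with 18433034 UMIs. Only 31 cell barcodes occurred in both P5 libraries, 6 of them in retaining CMs of P5-4n and 4 in retaining CMs of P5-2n. With 1 library per condition, a range in parentheses is a 95.0% interval that is exact, by Clopper and Pearson for shares and from the binomial split of UMIs for log2 ratios, and that covers counting error only.

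In the mouse ventricle, Myh7 is the main myosin heavy chain before birth, and Myh6, the fast (alpha) isoform that lies beside it on the chromosome, replaces it around birth while thyroid hormone rises. Myh7 returns in the stressed adult heart together with Nppa, the gene of atrial natriuretic peptide, which the embryonic ventricle also makes. In the same days after birth CMs leave the cell cycle, turn to fatty acids as fuel and exchange fetal for adult sarcomere proteins.

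The bases before the start sites of Myh7 and of 3 genes described below are shown here, since Myh7 chose the cells, Nppa and Cdc20 stood first in their direction by the rank used here, and Ube2c was the most abundant G2/M marker in P5-4n. Each line gives the 250 bases before the RefSeq start on GRCm38.p6, read 5′ to 3′ on the strand of the gene, for Myh7 (chr14:54994627-54994876, minus strand, the 5′-most of 2 starts), Nppa (chr4:148000472-148000721, plus strand), Cdc20 (chr4:118437344-118437593, minus strand) and Ube2c (chr2:164769679-164769928, plus strand). Capitals mark the motifs searched on both strands, with CATTCC for the MCAT element, TATAAA for the core promoter box, TTTGAA for the CHR element of genes that rise in G2/M, and CCAAT for the box of the same name.
Myh7: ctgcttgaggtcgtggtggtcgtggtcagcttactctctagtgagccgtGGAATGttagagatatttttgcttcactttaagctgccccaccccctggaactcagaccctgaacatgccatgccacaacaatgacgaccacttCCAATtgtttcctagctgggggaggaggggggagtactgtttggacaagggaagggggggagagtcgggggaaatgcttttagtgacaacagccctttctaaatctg
Nppa: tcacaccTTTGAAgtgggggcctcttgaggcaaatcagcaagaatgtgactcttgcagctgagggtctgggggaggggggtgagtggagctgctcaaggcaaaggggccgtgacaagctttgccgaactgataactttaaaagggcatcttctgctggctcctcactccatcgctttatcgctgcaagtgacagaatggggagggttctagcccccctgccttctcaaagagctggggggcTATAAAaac
Cdc20: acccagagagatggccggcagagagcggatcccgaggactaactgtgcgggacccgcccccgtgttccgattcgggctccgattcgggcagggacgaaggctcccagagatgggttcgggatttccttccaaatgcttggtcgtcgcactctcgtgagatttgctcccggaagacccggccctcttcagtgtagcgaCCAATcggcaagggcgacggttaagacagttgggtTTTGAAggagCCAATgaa
Ube2c: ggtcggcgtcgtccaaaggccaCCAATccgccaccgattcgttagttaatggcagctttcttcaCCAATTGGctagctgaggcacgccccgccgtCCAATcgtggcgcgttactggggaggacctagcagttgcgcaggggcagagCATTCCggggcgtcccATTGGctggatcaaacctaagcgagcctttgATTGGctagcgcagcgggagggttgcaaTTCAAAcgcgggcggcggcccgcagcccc
The Myh7 window held the MCAT letters, on the reverse strand, 201 bases before the start and CCAAT at 107 bases. Nppa held TATAAA 9 bases before its start and TTTGAA at 243 bases. In Cdc20, TTTGAA lay 18 bases before the start between CCAAT boxes at 53 and 8 bases, and Ube2c held TTTGAA, on the reverse strand, 29 bases before the start and CCAAT in either direction at 228, 186, 183, 155, 88 and 57 bases, of which those at 186 and 183 overlap. Ube2c also held CATTCC at 104 bases. Of 32851 windows of this length, 12.6% held CATTCC, 12.4% TATAAA, 16.0% TTTGAA and 33.8% CCAAT, so that a match is common and only describes the letters. Positions count from the RefSeq start, while the spans of genes given below follow the GENCODE annotation, which places the starts of Cdc20 and Ube2c inside these windows.

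Myh7 had become a rare transcript at P5. Levels are given as counts per 1000000 UMIs (CPM). Summed over all CMs, Myh7 stood at 3765 CPM (E16.5-2n), then 955 CPM (P1-2n) and 183 CPM (P5-2n). The 4n libraries had 3351 CPM in E16.5-4n, then 806 CPM (P1-4n) and 166 CPM (P5-4n). The level was thus lower at each later age in both ploidies. The rule that left 689 Myh7-retaining CMs at P5 called 5358 of the 5699 CMs of E16.5-2n and 4340 of the 4880 of E16.5-4n, and 2306 of 7340 CMs (P1-2n) and 2140 of 4747 (P1-4n).

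At P5, 360 CMs of P5-2n were Myh7-retaining, a share of 8.16% (7.37 to 9.0), as were 329 CMs of P5-4n, a share of 9.0% (8.10 to 9.98). No Myh7 UMI was found in 2946 CMs of P5-2n (66.8%) and in 2242 of P5-4n (61.4%), and 1 to 2 UMIs were found in 1107 and 1083 CMs. Most retaining CMs lay close to the threshold, since 189 in P5-2n and 176 in P5-4n held 3 to 4 UMIs. A tail of 33 CMs in P5-2n and 29 in P5-4n held 10 or more, with 25 UMIs as the most in a 2n CM and 23 in a 4n CM. If every CM of a library gave Myh7 the same share of its UMIs, its depth alone would place 228 CMs of P5-2n and 240 of P5-4n at 3 or more UMIs (a calculation and not a test) and 0 at 10 or more in either library. These are the counts that the rule used, so the comparison only describes them, and how evenly Myh7 UMIs were spread was not tested.

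**Figure D1:**
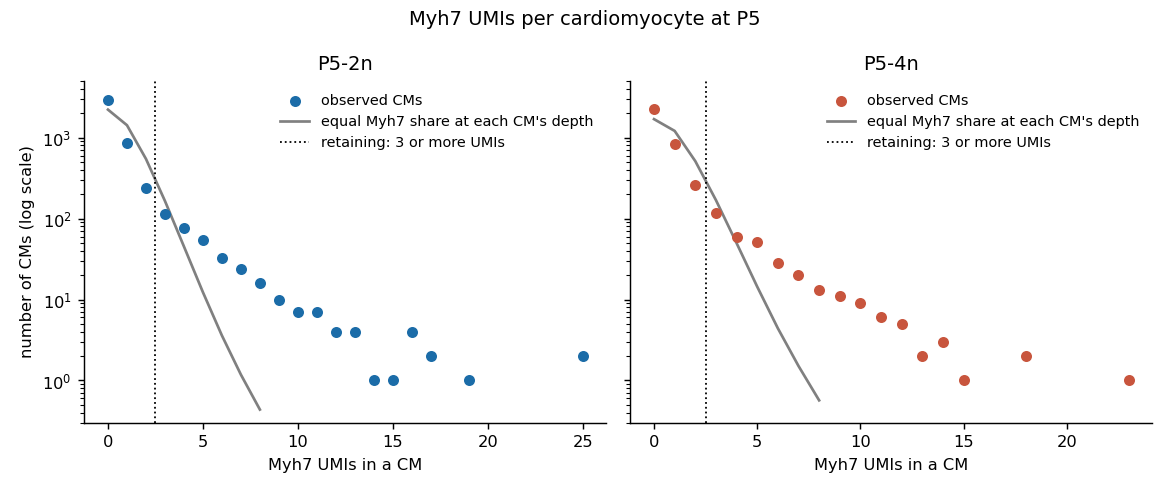
Number of CMs (log scale) by their Myh7 UMIs in P5-2n and P5-4n. Points are the CMs observed, the grey line is the number that an equal Myh7 share at each depth would give, and the dotted line marks the threshold of 3 UMIs, right of which 360 and 329 CMs lie, with 33 and 29 CMs at 10 UMIs or more where the line gives 0.

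Because the rule counts UMIs, a deeper CM passes it more easily. The median depth was 3884.5 UMIs in retaining and 3651.5 in Myh7-0 CMs of P5-2n, and 5280 against 4399.5 in P5-4n. Once every CM was thinned to 2000 UMIs, leaving out 446 CMs of P5-2n and 167 of P5-4n that were shallower and 1 CM of each that then lacked a UMI of a CM marker, 157 of 3966 CMs (3.96%, 3.37 to 4.61) and 100 of 3486 CMs (2.87%, 2.34 to 3.48) met the threshold. The order of the ploidies differed between these counts and the full ones, and no order is read from them. As a check on depth, each retaining CM was paired with 1 Myh7-0 CM of its library whose UMIs other than Myh7 lay within 5.0%, which gave 349 pairs in P5-2n (medians of 3840 and 3839 UMIs) and 312 in P5-4n (5116 and 5115).

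Just inside the threshold, the 113 CMs of P5-2n and the 117 of P5-4n with exactly 3 UMIs gave Myh7 609 and 527 CPM. Just outside, the 237 and 260 CMs with 2 UMIs gave it 444 and 332 CPM. Summed over all retaining CMs, Myh7 took 1131 CPM in P5-2n (1945 UMIs) and 821 CPM in P5-4n (1716 UMIs). This level is set by the rule, which gave 1890 and 1231 CPM in the CMs it called in P1-2n and P1-4n. The retaining CMs were not without the adult isoform. Myh6 took 2413 CPM in them against 2477 CPM in Myh7-0 CMs of P5-2n, and 3135 against 2818 CPM in P5-4n, and Myh7 made up 31.9% and 20.8% of the sum of their Myh6 and Myh7 UMIs. Of the 49 cells of P5-2n outside the CM rule 0 had a Myh7 UMI, which allows a share of up to 6.12% with a detected UMI. Of the 24 in P5-4n 1 had one. The median depths were 1217 and 1189.5 UMIs, at which a cell can express Myh7 without a UMI, so that no share of expressing cells is read from this.

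Ranked by the smallest of their ratios in both libraries, over all CMs and over the depth pairs, Nppa stood first among the genes that were higher in retaining CMs. Markers of G2/M were prominent among those that were lower, most of all in P5-4n. Ankrd1 was higher as well, by less than 1.5-fold. Levels of other genes are given as CPM of all UMIs other than Myh7, and each ratio is that of retaining to Myh7-0 CMs. Of 4625 genes with at least 200 UMIs in both classes of P5-2n together, 108 (2.34%) were at least 1.5-fold higher and 25 (0.541%) at least 1.5-fold lower. Of 4610 such genes in P5-4n, 66 (1.43%) were higher and 190 (4.12%) lower by this fold. In the depth pairs, where fewer genes reach 200 UMIs, 14 of 1597 genes (0.877%) were higher and 6 (0.376%) lower in P5-2n, and 7 of 1802 (0.388%) and 59 (3.27%) in P5-4n. Scaled by the median of ratios, P5-2n had 72 genes higher and 50 lower. The median log2 ratio over all these genes was 0.06 in P5-2n and 0.01 in P5-4n, and 62.0% and 51.9% of them had ratios above 0. Among the 4393 genes measured in both libraries, 25 were past the fold upward in both, 27.8% of the 90 in P5-2n and 41.0% of the 61 in P5-4n. Downward only Cdc20 and Tst were past it in both, 13.3% of the 15 in P5-2n and 1.64% of the 122 in P5-4n.

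Nppa (chromosome 4 from 148000722 to 148002079) took 1625 CPM in retaining and 816 CPM in Myh7-0 CMs of P5-2n, a log2 ratio of 0.99 (0.93 to 1.06). In P5-4n it took 1171 against 493 CPM, a log2 ratio of 1.25 (1.18 to 1.32). Among the depth pairs the log2 ratio was 1.57 in P5-2n and 1.27 in P5-4n, and it was above 0 under each of 15 other settings in both libraries, from 0.56 and 0.71 when CMs with 1 to 2 Myh7 UMIs were the comparison up to 1.57 and 2.07. No Nppa UMI was found in 190 of the 360 retaining CMs of P5-2n and 179 of the 329 of P5-4n. Instead, 54 of the 360 retaining CMs of P5-2n (15.0%) held 10 or more and together 90.9% of the Nppa UMIs of the class. In P5-4n 61 of the 329 (18.5%) held 89.4%. Such CMs made up 7.26% and 5.53% of the Myh7-0 CMs, so that the intervals, which treat UMIs as independent, are narrower than the spread between cells.

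The same held for shares of cells at an equal depth. At 2000 UMIs per CM, Nppa was found in 35.1% (29.9 to 40.5) of the retaining and 25.3% (23.7 to 27.0) of the Myh7-0 CMs of P5-2n, and in 31.9% (26.8 to 37.3) against 20.9% (19.2 to 22.7) in P5-4n. Without thinning the shares were 47.2% and 31.9% in P5-2n, and 45.6% and 31.1% in P5-4n. In the cells outside the CM rule, with median depths of 1217 and 1189.5 UMIs, they were 18.4% and 25%. These cells are few and were not thinned, so that the thinned shares of CMs cannot be set against theirs. At least 10 Nppa UMIs were found in 11% of retaining and 4.17% of Myh7-0 CMs of P5-2n, and in 7.12% against 2.28% in P5-4n, again after thinning. Read the other way, 3.43% (2.80 to 4.16) of the P5-2n CMs without Nppa were Myh7-retaining at this depth and 8.54% (5.06 to 13.3) of those with 10 or more Nppa UMIs. In P5-4n these shares were 2.69% (2.11 to 3.37) and 7.62% (3.35 to 14.5), with overlapping intervals. At 1 to 2 Nppa UMIs the shares were 4.09% in P5-2n and 2.18% in P5-4n.

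Ankrd1, a stress-responsive protein of the sarcomere that also binds DNA factors (chromosome 19 from 36111961 to 36120099), was found in most CMs of both classes. It took 2475 CPM in retaining and 1738 CPM in Myh7-0 CMs of P5-2n, a log2 ratio of 0.51 (0.46 to 0.56), and 2122 against 1640 CPM in P5-4n, a log2 ratio of 0.37 (0.32 to 0.42). Among the depth pairs the ratios were 0.47 and 0.31. At least 3 Ankrd1 UMIs were found at 2000 UMIs per CM in 59.8% of the retaining and 45.2% of the Myh7-0 CMs of P5-2n, and in 56.0% against 42.4% in P5-4n. Nppb, the gene of brain natriuretic peptide, took 462 against 412 CPM in P5-2n and 474 against 353 CPM in P5-4n. Acta1, the skeletal alpha actin of the fetal heart, took 140 against 120 CPM and 185 against 153 CPM. Its log2 ratio of 0.27 in P5-4n kept its direction in 13 of 15 other settings. With classes from counts thinned to 2000 UMIs it was -0.40.

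As a group, 15 of the 16 natriuretic and stress genes listed had enough UMIs. This list holds Nppa and Ankrd1, so that its sums and counts are not separate from the values above. All 15 had a log2 ratio above 0 in P5-2n, 4 of them past 1.5-fold, with a median log2 ratio of 0.33. In P5-4n 13 were above 0 and 3 past 1.5-fold, with a median of 0.18. Of all genes, 62.0% in P5-2n and 51.9% in P5-4n were above 0. Their summed level was 7714 against 5733 CPM in P5-2n and 6767 against 5146 CPM in P5-4n. The shares past the fold and the medians lay above those of all genes (2.34% and 1.43%, 0.06 and 0.01), and the medians among the depth pairs were 0.47 and 0.31.

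The other genes of this rank, chosen by their values and by no list, included 4 that encode proteins of the sarcomere or of its attachment. The list of intercalated disc genes as a whole had medians of 0.07 over 14 genes in P5-2n and 0.04 over 13 in P5-4n, near those of all genes. Of its members 5 and 3 were below 0, beside 38.0% and 48.1% of all genes. Xirp2, an actin-binding protein of the intercalated disc (chromosome 2 from 67446002 to 67526614), took 70.5 CPM in retaining and 37.1 CPM in Myh7-0 CMs of P5-2n, and 61.3 against 41.0 CPM in P5-4n, log2 ratios of 0.93 and 0.58. Fhl1, a LIM protein that binds titin and responds to load (chromosome X from 56731787 to 56793346), took 106 against 66.8 CPM and 85.2 against 53.0 CPM, log2 ratios of 0.67 and 0.69. The Z-disc proteins Pdlim3 (0.59 and 0.86) and Pdlim7 (0.74 and 0.60) were higher by a similar ratio. None of these 4 genes changed sign under any of the settings tried. Xirp2 was found in 0 of the cells outside the CM rule in P5-2n, in 9.76% of retaining and 6.31% of Myh7-0 CMs there, and in 10.2% against 6.08% in P5-4n, at 2000 UMIs per CM.

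The same rank included genes that cells other than CMs also express strongly. Clu, a secreted chaperone (chromosome 14 from 65968483 to 65981547), took 115 against 64.5 CPM in P5-2n and 74.2 against 46.2 CPM in P5-4n. Slc6a6, the taurine transporter, took 29.7 against 16.7 CPM and 39 against 16.6 CPM. Fstl1, a secreted glycoprotein of the stroma and epicardium, took 95.5 against 50.2 CPM and 101 against 53.2 CPM. App, Cited2 and Klf2 completed this set, with log2 ratios of 0.63, 0.54 and 0.59 in P5-2n and 0.56, 0.82 and 1.02 in P5-4n. Eln, the gene of elastin, had ratios of 1.03 and 1.06, but 10 cells held 79.6% of its UMIs in the retaining CMs of P5-2n and 84.8% in those of P5-4n. Its UMIs were thus those of few cells.

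**Figure D2:**
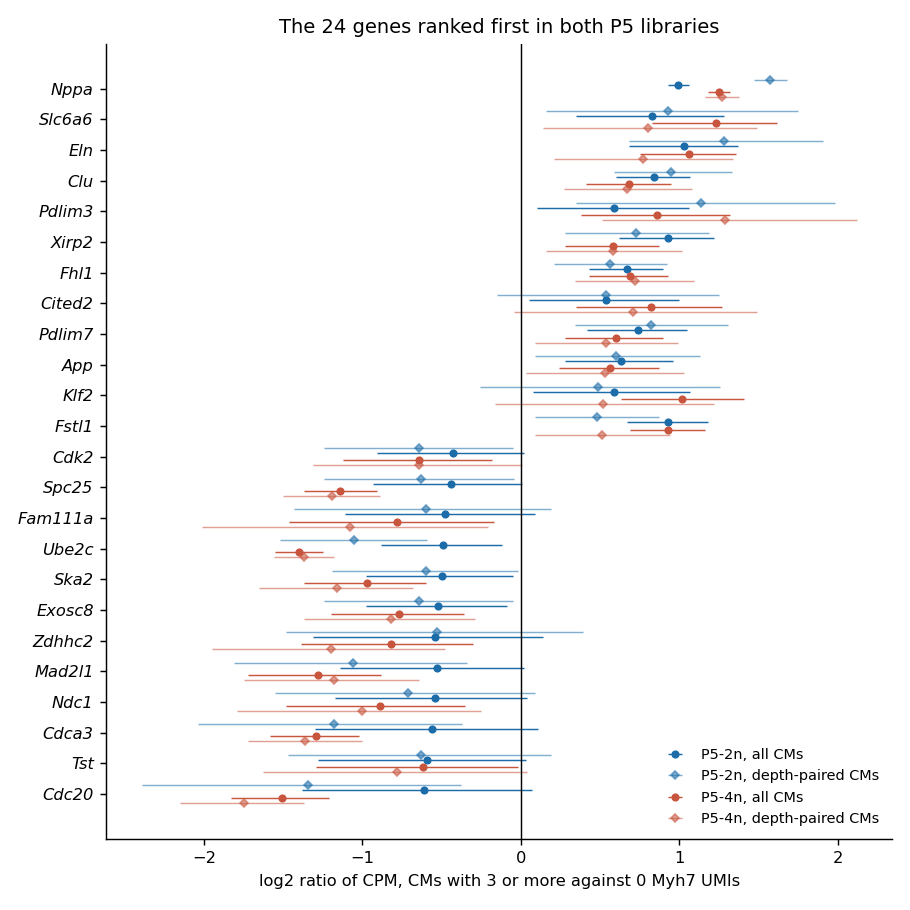
Log2 ratio of CPM in CMs with 3 or more against 0 Myh7 UMIs for the 12 genes ranked first in each direction. Circles are all CMs, diamonds the depth pairs and bars exact 95.0% intervals (counting error only), with Nppa at 0.99 and 1.25 and Ube2c at -0.49 and -1.40 in P5-2n and P5-4n.

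Most genes of mitosis with enough UMIs were lower in retaining CMs, with ratios further from 0 in P5-4n than in P5-2n. Ube2c, the ubiquitin-conjugating enzyme of the anaphase-promoting complex (chromosome 2 from 164769898 to 164778822), took 184 CPM in retaining and 487 CPM in Myh7-0 CMs of P5-4n, a log2 ratio of -1.40 (-1.55 to -1.25). In P5-2n it took 39.0 against 54.8 CPM, a log2 ratio of -0.49 (-0.88 to -0.12). Cdc20, an activator of the same complex (chromosome 4 from 118432901 to 118437352), took 44.5 against 127 CPM in P5-4n, a log2 ratio of -1.51 (-1.83 to -1.21), and 11.1 against 16.9 CPM in P5-2n, where the interval of -0.61 (-1.38 to 0.07) includes 0. Cdca3, Mad2l1, Spc25 and Ska2, which act in mitotic entry and at kinetochores, had ratios of -1.29, -1.28, -1.14 and -0.97 in P5-4n and -0.56, -0.53, -0.44 and -0.50 in P5-2n. The rest of the 12 genes ranked first were Tst, Ndc1, Zdhhc2, Exosc8, Fam111a and Cdk2, with ratios between -0.89 and -0.62 in P5-4n.

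Of 23 G2/M markers listed, 22 had enough UMIs in P5-4n, and all 22 were more than 1.5-fold lower in retaining CMs, beside 4.12% of all genes there. Their median log2 ratio was -1.33, and -1.45 among the depth pairs. Top2a, the topoisomerase that separates chromosomes, took 61.3 against 141 CPM, Mki67, the proliferation marker, 29.2 against 68.7 CPM, and Ccnb1, cyclin B1, 46.4 against 117 CPM. Summed, the list took 982 CPM in retaining and 2471 CPM in Myh7-0 CMs of P5-4n. In P5-2n, where 6 markers had enough UMIs, all 6 had ratios below 0, as did 38.0% of all genes there, and 1 was past 1.5-fold, beside 0.541% of all genes, with a median of -0.32 and sums of 353 and 412 CPM. Not every marker had this direction in P5-2n, where Mki67, with fewer than 200 UMIs, had a log2 ratio of 0.54 (-0.02 to 1.07). Whether the ploidies differ in this contrast was not tested.

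The markers were also found in fewer of the retaining CMs of P5-4n. At 2000 UMIs per CM, at least 2 G2/M UMIs were found in 20.7% (16.5 to 25.6) of retaining and 46.9% (44.8 to 49.1) of Myh7-0 CMs of P5-4n (38.9% and 55.8% without thinning). In P5-2n the shares were 9.76% and 12.9%, in the opposite order to the 21.4% and 18.9% without thinning, so that no order is read from them. Ube2c alone was found in 17.3% (13.4 to 21.9) against 38.7% (36.7 to 40.9) of CMs in P5-4n, and in 20.8% of the 24 cells outside the CM rule without thinning, of which 29.2% held 2 or more G2/M UMIs. In the other direction, 4.18% (3.20 to 5.35) of the 1436 CMs of P5-4n without a G2/M UMI were Myh7-retaining at this depth, against 0.939% (0.451 to 1.72) of the 1065 with 5 or more. For any Myh7 UMI these shares were 26.7% and 14.9%. In P5-2n the shares of retaining CMs were 4.34% (3.63 to 5.15) and 1.80% (0.372 to 5.16), with overlapping intervals.

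When CMs with 2 or more G2/M UMIs were left out, the median of the markers in P5-4n was -0.34. Genes of the S phase had a median of -0.48 over 8 genes in P5-4n, all 8 below 0 and 3 past 1.5-fold, beside 48.1% and 4.12% of all genes. In P5-2n the median was -0.16 over 17 genes, of which 11 were below and 6 above 0, with 2 past 1.5-fold downward and 1, Fen1, upward (0.59), beside 38.0% of all genes below 0, 0.541% past the fold downward and 2.34% upward. Rrm2, a subunit of ribonucleotide reductase, took 101 against 124 CPM and 112 against 243 CPM. Among inhibitors of the cell cycle, Cdkn2d and Cdkn2c had ratios of -1.0 and -0.80 in P5-4n, and the list as a whole had medians of 0.02 and -0.05.

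**Figure D3:**
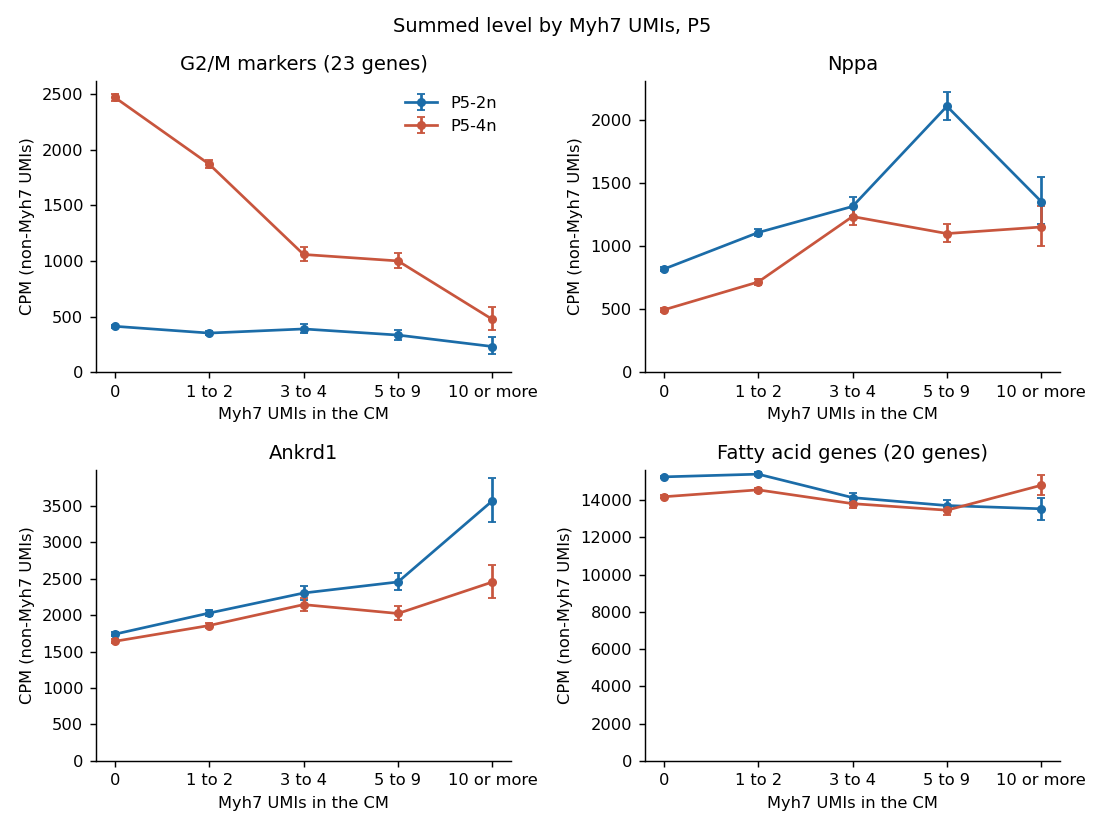
Level by the number of Myh7 UMIs in a CM, for the summed G2/M markers, Nppa, Ankrd1 and the summed fatty acid genes, in CPM of UMIs other than Myh7 with exact 95.0% Poisson intervals. In P5-4n the G2/M markers go from 2471 CPM at 0 Myh7 UMIs to 474 CPM at 10 or more, while Ankrd1 goes from 1738 to 3569 CPM in P5-2n. The last bin holds 33 CMs of P5-2n and 29 of P5-4n.

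The G2/M level was also described by the number of Myh7 UMIs, the counts that the rule used. In P5-4n it was 2471 CPM at 0 Myh7 UMIs, 1870 at 1 to 2, 1058 at 3 to 4, 1000 at 5 to 9 and 474 at 10 or more. After thinning to 2000 UMIs these values were 2433, 1851, 923, 845 and 340 CPM. Within the retaining CMs of P5-4n the level thus differed little between the bins of 176 and 124 CMs. It was lower in the last bin, which held only 29 CMs. In P5-2n the values without thinning were 412, 351, 388, 333 and 230 CPM, without a steady order in the middle and with 33 CMs in the last bin. Ankrd1 took 1738, 2028, 2303, 2455 and 3569 CPM in the same bins of P5-2n, against 1640, 1857, 2144, 2022 and 2454 CPM in P5-4n. For Nppa the bins of P5-2n had 816, 1106, 1313, 2107 and 1351 CPM and those of P5-4n 493, 714, 1233, 1098 and 1150 CPM, so that its highest level was not in the CMs with the most Myh7. The CMs with 1 to 2 Myh7 UMIs lay between both classes for Nppa, Ankrd1 and, in P5-4n, the G2/M markers.

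Nppa and Myh7 did not mark the same CMs throughout. Among CMs without a single Nppa UMI, 190 retaining and 2006 Myh7-0 CMs of P5-2n and 179 and 1545 of P5-4n, Ankrd1 took 2655 against 1590 CPM in P5-2n and 1939 against 1505 CPM in P5-4n. Xirp2 took 62.2 against 29.2 CPM and 50.8 against 33.4 CPM in these CMs. The G2/M markers took 1160 against 2572 CPM in those of P5-4n. The contrasts of Ankrd1, Xirp2 and, in P5-4n, the G2/M markers thus had the same direction without the CMs in which an Nppa UMI was found. A CM without such a UMI can still express Nppa. Among CMs with 3 or more Nppa UMIs, Xirp2 took 109 against 73.9 CPM in P5-2n but 76.6 against 88.6 CPM in P5-4n. In such CMs Slc6a6 took 13.4 against 28.7 CPM, Clu 62.5 against 72.2 CPM and Eln 11.2 against 14.3 CPM in P5-2n. In those of P5-4n the order was the reverse, with 65.1 against 21.4 CPM for Slc6a6, 72.8 against 64.3 CPM for Clu and 120 against 19.3 CPM for Eln.

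Most other fetal sarcomere genes with enough UMIs, 7 of 9 in P5-2n and all 9 in P5-4n, had ratios above 0, beside 62.0% and 51.9% of all genes. Of the 9, 6 and 7 did among the depth pairs, where 2 were past 1.5-fold downward in P5-4n. Of genes with enough UMIs in the pairs, 55.4% and 46.8% were above 0, and 3.27% in P5-4n were past the fold downward. Tnni1, the slow skeletal troponin I of the fetal heart (chromosome 1 from 135779434 to 135810989), took 2978 CPM in retaining and 2760 CPM in Myh7-0 CMs of P5-2n, and 3020 against 2578 CPM in P5-4n, log2 ratios of 0.11 and 0.23. Over the 9 fetal sarcomere genes with enough UMIs the median was 0.12 in P5-2n, with 1 gene past 1.5-fold in each direction (2.34% and 0.541% of all genes), and 0.30 in P5-4n, with 1 past it upward, beside 1.43% of all genes. Mature sarcomere genes were measured in full. Their median was 0.08 in P5-2n and 0.13 in P5-4n over 20 genes, of which 16 and 19 had ratios above 0, beside 62.0% and 51.9% of all genes, and 0 were past 1.5-fold. The 0.08 is near the 0.06 of all genes. Csrp3, a Z-disc sensor of stretch, took 2685 against 2175 CPM and 2302 against 1858 CPM, and Myl2, the ventricular regulatory light chain, 13271 against 12892 CPM and 12534 against 11588 CPM. Mhrt, an antisense RNA of the Myh6 and Myh7 locus, took 32.6 against 34.2 CPM and 32.1 against 31.9 CPM.

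Genes of fatty acid uptake and oxidation differed little. Of 19 genes with enough UMIs, 16 had ratios below 0 in each library, beside 38.0% and 48.1% of all genes, with medians of -0.13 in P5-2n and -0.05 in P5-4n, and 0 were past 1.5-fold in either direction. Fabp3, the cytosolic carrier of fatty acids, took 5981 against 6629 CPM in P5-2n and 6038 against 6049 CPM in P5-4n. Hadh, an enzyme of beta oxidation, took 432 against 483 CPM and 381 against 466 CPM. Over 26 nuclear genes of the respiratory chain the medians were -0.06 and -0.03, and over 12 mitochondrially encoded genes -0.14 and -0.03. Glycolytic genes had medians of 0.08 and 0.04, near the 0.06 and 0.01 of all genes. Nuclear receptors of thyroid hormone and related ligands had medians of -0.01 and -0.05 over 6 genes, and Thra, the main thyroid hormone receptor of the heart, took 78.0 against 73.0 CPM and 69.9 against 70.2 CPM.

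**Figure D4:**
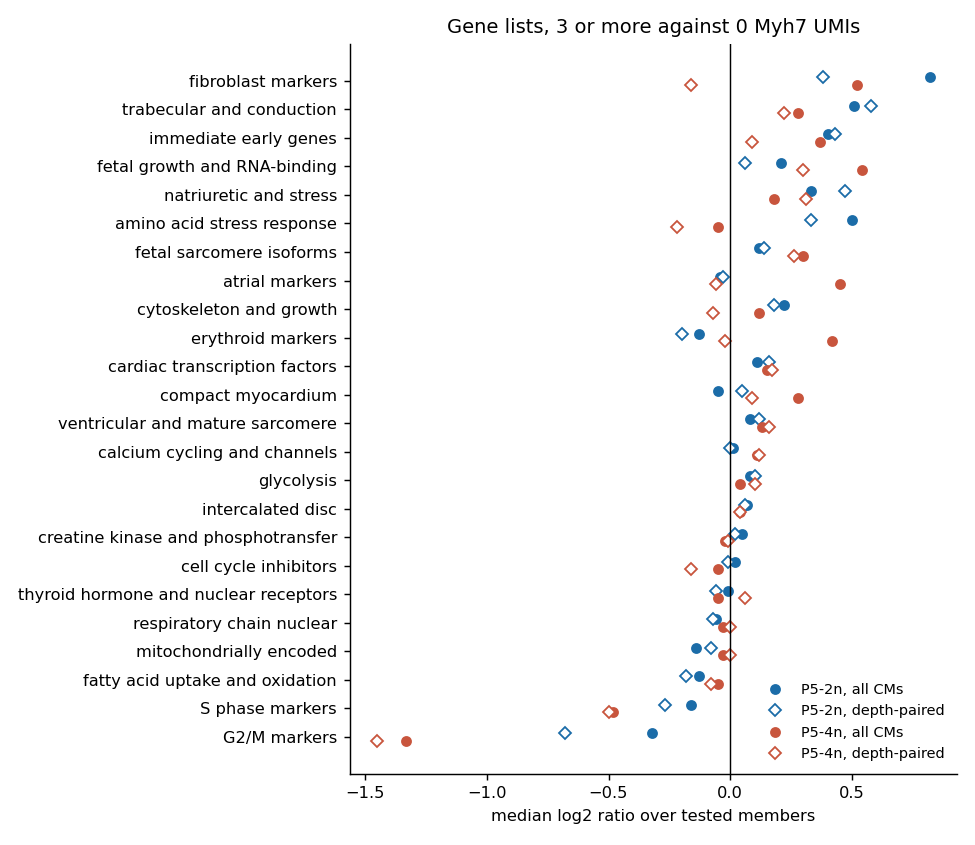
Median log2 ratio (3 or more against 0 Myh7 UMIs) over the members with enough UMIs, for the 24 lists with at least 3 such members in both libraries. Filled circles are all CMs and open diamonds the depth pairs, and the G2/M markers stand lowest, at -0.32 in P5-2n and -1.33 in P5-4n, while the medians of the fibroblast markers, 0.82 and 0.52, are 0.38 and -0.16 among the depth pairs.

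Imprinted and other fetal growth genes were higher in both libraries over all CMs, with medians of 0.21 over 7 genes and 0.54 over 6. Mest took 71.1 against 37.9 CPM in P5-2n and 75.2 against 48.8 CPM in P5-4n. Meg3, a maternally expressed long noncoding RNA, took 39.6 against 14.1 CPM and 31.1 against 13.3 CPM. Among the depth pairs the medians were 0.06 and 0.30, and the ratios of Mest 0.16 and -0.19. The median in P5-2n was 0.05 without the 5% of CMs with the most UMIs, and that in P5-4n 0.05 without CMs with 2 or more G2/M UMIs. In P1-2n the median of the list was 0.14, with 7 of 8 members above 0, beside 51.0% of all genes. In P1-4n it was -0.22, with 11 of 12 members below 0, beside 53.4% of all genes.

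Markers of other cell types stood beside these results. Fibroblast markers, led by Col3a1, summed to 457 CPM in retaining and 255 CPM in Myh7-0 CMs of P5-2n, and 555 against 359 CPM in P5-4n. All 6 measured members of 9 were above a ratio of 0, beside 62.0% and 51.9% of all genes. Past 1.5-fold upward were 4 and 2 of them, beside 2.34% and 1.43% of all genes. Endothelial markers, led by Cdh5, summed to 121 against 62.2 CPM and 139 against 66.6 CPM. The list of mural markers, led by Abcc9, summed to 128 against 107 CPM and 163 against 107 CPM. Whether CMs themselves gave the UMIs of Abcc9 was not tested. Rgs5, Cd34, Igfbp5, Fabp4, Sparc, Mgp, Col1a1 and Col1a2 were also among the 25 genes past 1.5-fold in both libraries, and were named after their values had been seen. At least 3 UMIs of fibroblast, endothelial, mural, macrophage and epicardial markers were found in 13.3% of retaining and 9.06% of Myh7-0 CMs of P5-2n, and in 25.2% against 16.5% in P5-4n.

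Among the depth pairs the fibroblast sum was 413 against 301 CPM in P5-2n and 274 against 321 CPM in P5-4n, and the endothelial sum was 98.4 against 91.2 CPM and 72.6 against 84.0 CPM. The fibroblast median of 0.82 in P5-2n was -1.14 without the 5% of CMs with the most UMIs, -0.59 without CMs with 2 or more G2/M UMIs and -0.13 without CMs with 3 or more UMIs of other cell types. Over all CMs, macrophage markers summed to 16.3 against 16.6 CPM in P5-2n, with C1qa, C1qb and Ptprc at 0 in retaining CMs, and to 13.4 against 13.7 CPM in P5-4n, with Ptprc at 0. In the depth pairs the macrophage sums were 17.4 against 36.6 CPM and 9.64 against 23.8 CPM. Epicardial markers summed to 11.6 against 7.26 CPM and 10.5 against 7.46 CPM over all CMs, and to 12.9 against 9.64 CPM and 3.97 against 11.3 CPM among the depth pairs. Leaving out CMs with any UMI of the stromal lists, Abcc9 included, kept 162 retaining CMs of P5-2n and 92 of P5-4n. Without CMs that held any such UMI, the log2 ratio of Nppa was 1.16 in P5-2n and 2.07 in P5-4n, and that of Ankrd1 0.53 and 0.58. The G2/M median without them was -0.98 in P5-2n and -2.17 in P5-4n. For Eln the ratio in P5-4n was -1.30 without them, and for Klf2 it was 0.02 in P5-2n. Clu had ratios of 1.09 and 0.83 and Fstl1 of 1.03 and 0.19 in P5-2n and P5-4n without these CMs. Doublets were not called here. Without the 5% of CMs with the most UMIs, Nppa had ratios of 1.15 and 1.38, Ankrd1 of 0.65 and 0.55, and the G2/M markers medians of -0.59 and -1.60.

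Of 11 atrial markers, a list that holds Nppa and Myh6, 5 had enough UMIs. Over all CMs 2 of these were above 0 in P5-2n and all 5 in P5-4n, beside 62.0% and 51.9% of all genes, with medians of -0.04 and 0.45. Among the depth pairs 1 and 2 were, with medians of -0.03 and -0.06. Of genes with enough UMIs in the pairs, 55.4% and 46.8% were above 0. The list summed to 4416 against 3812 CPM in P5-2n and 4689 against 3632 CPM in P5-4n. Sln, a regulator of calcium uptake in atrial CMs, had 0 UMIs in retaining and 185 in Myh7-0 CMs of P5-2n, and 22 and 76 UMIs in P5-4n. Myl7, the atrial regulatory light chain, took 30.9 against 142 CPM in P5-2n and 53.6 against 39.3 CPM in P5-4n. Its UMIs were held by few cells, and among the depth pairs the log2 ratios were -1.95 and -3.36. Erythroid markers, led by Hbb-bs, summed to 2285 against 2505 CPM in P5-2n and 2194 against 1658 CPM in P5-4n, and to 1705 against 1715 CPM among the depth pairs of P5-4n. Their part in the results was not tested. The share of mitochondrial UMIs was 16.6% in retaining CMs against 18.2% in P5-2n and 17.7% against 18.3% in P5-4n.

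**Figure D5:**
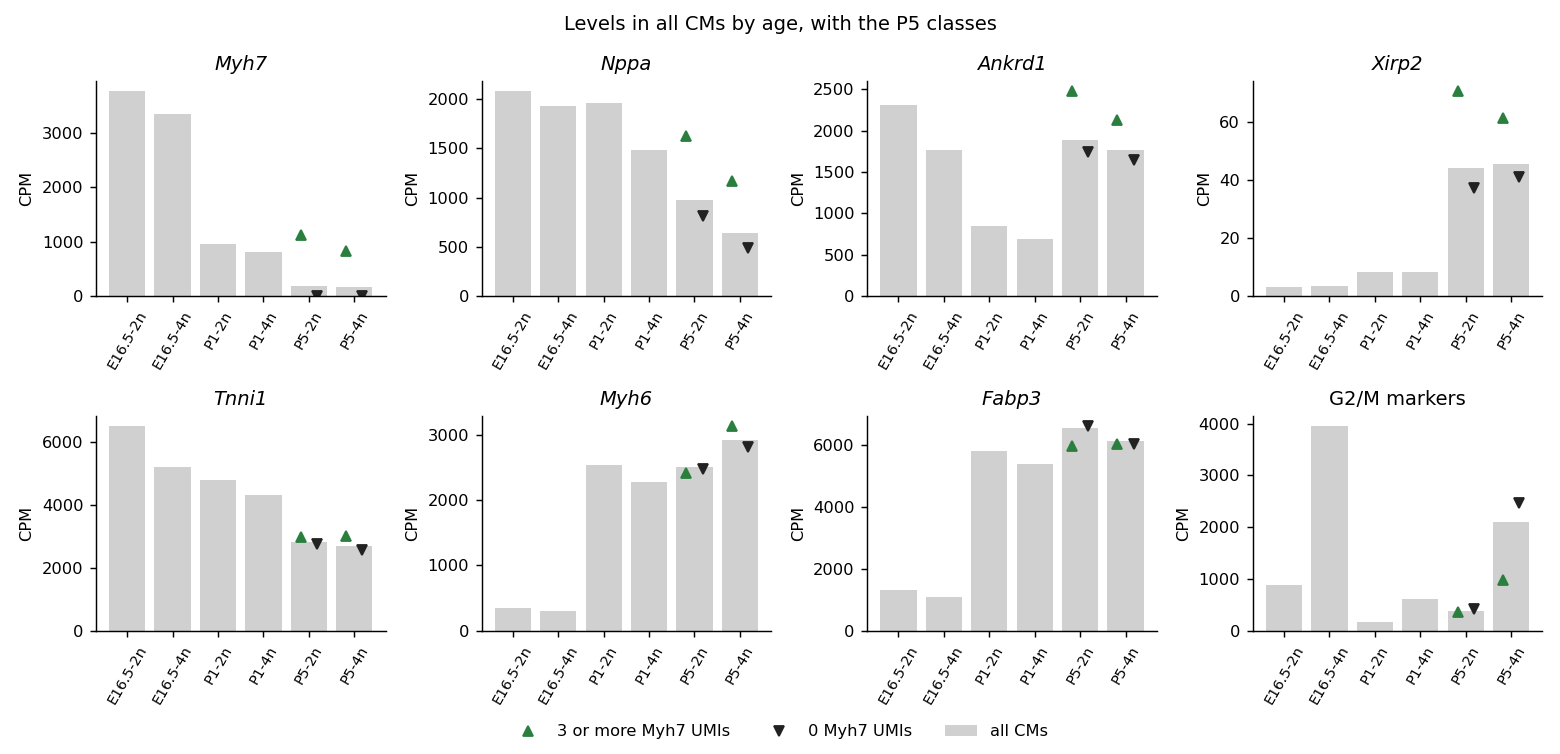
Level in CPM of 7 genes and of the summed G2/M markers in all CMs of the 6 libraries (bars), with the P5 CMs that held 3 or more (upward triangles) or 0 Myh7 UMIs (downward triangles). Nppa in the P5 retaining CMs (1625 and 1171 CPM) lies between the levels of all CMs at P5 and in E16.5, while Xirp2 (70.5 and 61.3 CPM) lies above every age.

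Set beside the other ages, the genes that were higher in retaining CMs did not share 1 course. Over all CMs, Nppa stood at 2079 CPM (E16.5-2n), 1961 CPM (P1-2n) and 973 CPM (P5-2n), and at 1926 CPM (E16.5-4n), 1479 CPM (P1-4n) and 642 CPM (P5-4n), so that its level was lower at P5 and the retaining CMs lay toward the younger ages. Ankrd1 took 2306, 850 and 1888 CPM in 2n and 1760, 694 and 1765 CPM in 4n, lowest at P1. Xirp2 took 3.09, 8.16 and 44.2 CPM in 2n and 3.45, 8.24 and 45.5 CPM in 4n, highest at P5, and was higher still in the retaining CMs. Of the 12 genes ranked first upward, 10 had a higher level in E16.5-2n than in P5-2n and 11 in E16.5-4n than in P5-4n, and of the 12 ranked first downward 8 and 11 did. Of all genes with enough UMIs at P5, 73.1% in 2n and 72.7% in 4n had a higher level at E16.5. At P1, 9 of the 12 upward genes in 2n and 11 in 4n stood above their level at P5, but 0 and 1 of the 12 downward genes. Of all genes, 58.8% and 58.0% stood higher at P1 than at P5. The G2/M markers took 874, 166 and 390 CPM in 2n and 3957, 622 and 2106 CPM in 4n. In E16.5-4n, where 4340 of 4880 CMs held 3 or more Myh7 UMIs, the markers thus stood higher than in any other library.

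The same contrast at P1, in cells that the rule for P5 had not used, had 2306 retaining and 2314 Myh7-0 CMs in P1-2n and 2140 and 1026 in P1-4n. Retaining CMs there were deeper, with medians of 2188.5 against 1620 UMIs in P1-2n and 4160 against 2389 in P1-4n. The values below are over all these CMs, not matched for depth, unless depth pairs are named. Nppa was higher in retaining CMs there too, with log2 ratios of 1.68 and 1.15, as was Ankrd1, with 0.82 and 0.66. The natriuretic and stress genes as a list had medians of 0.11 and 0.02 over 14 genes. Of these, 11 and 8 were above 0, beside 51.0% and 46.6% of all genes. Of the 12 genes ranked first upward at P5, 10 had ratios above 0 in P1-2n, where 51.0% of all genes did, and 5 in P1-4n, near the 46.6% of all genes. The 10 G2/M markers with enough UMIs in P1-4n had a median of -0.58, and -1.21 among the depth pairs. Fibroblast markers had a median of 0.26 in P1-2n, with 4 of 5 above 0, beside 51.0% of all genes. In P1-4n it was -0.49, with all 7 below 0, beside 53.4% of all genes. Among the depth pairs the medians were -0.06 and -0.62. Nppa and Ankrd1 therefore had the same direction in all 4 libraries of P1 and P5, and the summed G2/M markers were lower in retaining CMs of all 4, at 146 against 186 CPM in P1-2n and 526 against 800 CPM in P1-4n.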

How the data were processed

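Raw UMI counts per gene and cell were deposited by the authors after demultiplexing, alignment and cell calling (Cell Ranger with STAR, and Seurat 2.3.0 named in the submitters' processing notes) against GRCm38 (mm10), without normalization. The files hold 1 count matrix for each of 6 libraries, and a table of the authors' own comparison and a list of symbols were not used here. The label of the E16.5-4n library also gives its age as E16.6. The result of 1 list of markers is not reported here. The members, the 29 gene lists and the settings were chosen with earlier results of these data known.

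UMIs of a class were summed, divided by its UMIs other than Myh7 and scaled to 1000000 (CPM, Python 3.11.15, numpy 2.4.6, scipy 1.17.1, pandas 2.3.3). Ratios were taken without a pseudocount, for genes with at least 200 UMIs in both classes together, and the script was tested on simulated data. A floor of 3 UMIs stands in for 0. Named genes are those of the lists, the 4 CM markers, Myh7, Mhrt and the 12 genes in each direction with the largest of the smallest log2 ratio over both libraries, all CMs and depth pairs (1551 genes had the same sign in these 4). Other depths, thresholds, scalings, minimum UMIs and cells left out were tried. Cells are not replicates, and no p-values were computed. Promoters were taken from RefSeq (GRCm38.p6).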

Additional observations from a re-analysis of the deposited data

Results flagged for a closer look

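For 9 of the 438 named genes the ratio of retaining to Myh7-0 CMs had opposite signs in P5-2n and P5-4n. The counting intervals left out 0 in both, and the difference between the ploidies was not tested. The same count over all genes is not given here, so that no excess is read from it. Myl7, the atrial light chain, had log2 ratios of -2.20 and 0.45, and Myl4, the other atrial light chain, of -0.52 and 0.55. The hemoglobin genes Hba-a1 (-0.15 and 0.46), Hba-a2 (-0.20 and 0.44) and Hbb-bs (-0.10 and 0.39) had the same order. Genes of calcium uptake, calcium release and energy transfer lay closer to 0, with Atp2a2 at -0.11 and 0.14, Ryr2 at -0.17 and 0.13 and Ckm at -0.10 and 0.06. Mt1, a metallothionein, had the reverse order, 0.18 and -0.13. Among the depth pairs the ratios in P5-4n were -3.36 for Myl7, -0.82 for Myl4 and -0.08 for Hbb-bs, so that these 3 genes had ratios below 0 in both ploidies there. In P5-4n, Myl4 was above 0 in 14 of 15 other settings, up to 1.71 with classes from thinned counts. Leaving out CMs with 5 or more Myl7 UMIs kept 359 of 360 retaining and 2920 of 2946 Myh7-0 CMs of P5-2n. The ratios were then 0.62 for Myl7 and 1.00 for Myl4, so that few cells set these signs.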

How the results depend on the processing

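Each condition had 1 library, so that differences between hearts, sorts and libraries cannot be told apart from those between the groups, and the intervals leave them out. No paired analysis was possible because the labels give no replicate numbers to pair, and the classes were compared within each library. For 37 of the named genes, 828 of 1108 values stayed within their counting interval. Of 814 medians of 24 lists, 724 stayed within a range that was wider than the counting interval of the summed list. For the G2/M markers of P5-4n that range was -1.77 to -0.98, and the interval of the sum -1.40 to -1.27. Nppa, Ankrd1, Clu, Xirp2, Fhl1, Pdlim3 and Pdlim7 had ratios above 0 under every setting run in both libraries. The share of retaining CMs was 3.96% and 2.87% (P5-2n and P5-4n) after thinning to 2000 UMIs, 13.5% and 16.1% at 2 or more Myh7 UMIs, and 3.87% and 4.19% at 5 or more. Genes at least 1.5-fold higher in P5-2n (108) numbered 14 among the depth pairs, 49 with up to 5 matched CMs each, 69 after thinning, 217 with classes also from thinned counts, 195 at 5 or more Myh7 UMIs, 35 against CMs with 1 to 2, 71 and 41 without CMs with 3 or 1 UMIs of other cell types, 69 without CMs with 2 G2/M UMIs, and 345 and 22 with a minimum of 100 or 500 UMIs. Those lower in P5-2n (25) numbered 6 among the pairs, 143 with thinned classes, 126 at 5 or more, 7 against 1 to 2, 51 and 50 without other cell types, 60 without the 5% deepest CMs, 63 as a mean over cells, and 138 and 3 at a minimum of 100 or 500 UMIs. Scaling by the median of ratios gave 72 higher and 50 lower there, and leaving out the 50 most abundant genes 80 and 44. Higher in P5-4n (66) were 7 genes among the pairs, 23 with matched CMs, 16 and 129 thinned, 141 at 5 or more, 37 against 1 to 2, 28 and 35 without other cell types, 20 without G2/M CMs, 42 as a mean over cells, and 200 and 13 at 100 or 500 UMIs. Lower in P5-4n (190) were 59 among the pairs, 113 and 338 thinned, 65 against 1 to 2, 13 without G2/M CMs, and 374 and 85 at 100 or 500 UMIs. Where CMs are dropped or thinned, fewer genes reach the minimum of UMIs. The median of the fetal sarcomere genes was 0.40 in P5-2n with thinned classes, and in P5-4n 0.10 against 1 to 2 and 0.48 without any UMI of other cell types, where mature sarcomere genes had 0.25. The G2/M median without such CMs was -0.98 in P5-2n and -2.17 in P5-4n, where it was -1.85 with thinned classes, -0.94 against 1 to 2 and -0.34 without G2/M CMs. The fibroblast median in P5-2n was 0.38 among the pairs and below 0 in 5 settings (-0.47 with thinned classes, -0.13 without 3 or more UMIs of other cell types, -1.14 without the deepest CMs, -0.59 without G2/M CMs, -0.39 as a mean over cells). In P5-4n it was -0.16 among the pairs, -0.22 with matched CMs, 0.01 and -0.36 thinned, -0.34 without the deepest, -0.33 without G2/M CMs and -0.25 as a mean over cells. Single genes changed sign as well. Eln was -0.67 in P5-2n without the deepest CMs, and -0.92 and -1.30 in P5-4n without other cell types. Without G2/M CMs, Cdc20 was 0.26 in P5-2n and 0.13 in P5-4n, where Ube2c was 0.06, Exosc8 0.02, Spc25 0.84, Mki67 0.81 and Klf2 -0.04. Without CMs with 5 or more Myl7 UMIs, Myl7 was 0.62 and Myl4 1.00 in P5-2n. With thinned classes, Cited2 was -0.14 and Acta1 -0.40 in P5-4n. H19 there was -0.63 with thinned classes, -0.05 and -0.94 without 3 or 1 UMIs of other cell types, and -0.33 without G2/M CMs. The causes were not tested. The settings on matched CMs, on Myl7 and on 1 UMI of other cell types were chosen after seeing the data.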

Other observations

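Some genes that the rank above did not reach stood apart between the classes in P5 CMs. Casq1, the skeletal calsequestrin that binds calcium in the sarcoplasmic reticulum, took 44.3 CPM in retaining and 19.2 CPM in Myh7-0 CMs of P5-2n, a log2 ratio of 1.20 (0.81 to 1.59). In P5-4n, where its 168 UMIs lay under the minimum, it took 28.7 against 10.5 CPM, a ratio of 1.46 (0.98 to 1.93), and among the depth pairs the ratios were 1.28 and 1.64. At P1 they were 1.47 in 2n and 0.36 in 4n. The list of calcium cycling genes and channels had medians of 0.01 over 18 genes in P5-2n and 0.11 over 16 in P5-4n. Of these, 9 and 14 were above 0, beside 62.0% and 51.9% of all genes, and 1 and 0 were past 1.5-fold upward. Of the genes of trabecular and conducting CMs, few had enough UMIs, 6 of 23 in P5-2n and 3 in P5-4n. Their medians were 0.51 and 0.28, and 4 and 3 members were above 0, beside 62.0% and 51.9% of all genes. At a minimum of 500 UMIs the median was -0.01 in P5-2n, and at P1 the medians were 0.01 in 2n and 0.00 in 4n. Id2, an inhibitor of helix-loop-helix factors in the conduction system, took 50.7 against 19.6 CPM in P5-2n and 28.2 against 11.3 CPM in P5-4n, and the UMIs of Id2 and of Etv1 in P5-4n lay under the minimum as well. Etv1, a factor of fast-conducting CMs, took 33.2 against 15.4 CPM in P5-2n and 12.9 against 8.72 CPM in P5-4n, where the interval of its ratio of 0.57 (-0.11 to 1.20) includes 0.

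Immediate early genes had medians of 0.40 and 0.37 over 10 genes in P5-2n and P5-4n, with 9 above 0 in each, beside 62.0% and 51.9% of all genes. Among the depth pairs of P5-4n the median was 0.09, and at P1 the medians over all CMs were -0.21 in 2n and -0.26 in 4n. Fos took 138 against 90.6 CPM in P5-2n and 113 against 87.5 CPM in P5-4n. Tbx20, a T-box factor of ventricular CMs, took 157 against 121 CPM and 158 against 124 CPM, with ratios of 0.36 and 0.31 among the depth pairs. The compact myocardium genes, which include Tbx20, had medians of -0.05 over 4 genes and 0.28 over 3. In each library 2 members were above 0, beside 62.0% and 51.9% of all genes. The cardiac transcription factors, which also include it, had medians of 0.11 and 0.15 over 13 genes. Of these, 11 and 12 were above 0, beside 62.0% and 51.9% of all genes.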
